A study of Mus musculus with 33 samples.

Results

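The 10 genes described here are the transcription factors of naive pluripotency *Esrrb*, *Nr0b1*, *Nr5a2*, *Klf2*, *Klf4*, *Klf5*, *Zfp42*, *Prdm14*, *Tfcp2l1* and *Tbx3*. They were chosen by gene symbol from a named list of factors, and all 10 were found among the 16336 genes of the deposited table. Their mRNA was measured by poly-A RNA-seq in 33 libraries of mouse embryonic stem (ES) cells and of embryoid bodies (EBs), the aggregates that ES cells form when they differentiate. The wild-type line was E14Tg2a, of strain 129/Ola. ΔK9.1 and ΔK9.2 are clones of it in which CRISPR/Cas9 removed, on both alleles, the stretch between the *Nanog* enhancer and promoter that carries the repressive histone mark H3K9me3. E14Tg2a is the parental line, and each ΔK9 line is 1 clone. The clones were picked after transfection, puromycin selection and sorting, which are not described for E14Tg2a. The deletion and these steps cannot be told apart. All lines were cultured on gelatine with foetal calf serum (FCS) and LIF on day 0, and were sampled after 4, 6 and 8 days of EB differentiation in FCS without LIF. The EBs were kept in suspension up to day 4 and then plated on gelatine at low density, so days 6 and 8 are adherent outgrowths, and time and culture format cannot be told apart between day 4 and day 6. There were 3 replicates per line and day, except on day 6, where each line had replicates 2 and 3 only.

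Naive pluripotency is the state of the early epiblast of the blastocyst, and ES cells can keep it in culture with LIF, which activates STAT3. Several interlocking factors sustain the core of *Pou5f1*, *Sox2* and *Nanog*, so that the loss of any single factor is often tolerated while their joint loss lets the cells leave the state. *Klf4* and *Tfcp2l1* are textbook targets of the LIF and STAT3 pathway, *Tbx3* is tied to PI3K signalling downstream of LIF, and *Esrrb* is a direct target of NANOG. Several members are also used later in development, such as *Tbx3* in endoderm and heart, *Klf2* and *Klf4* in endothelium, *Klf5* in trophoblast and epithelium, *Nr5a2* in endoderm and *Prdm14* in germ cells.

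Levels are given as TPM, a transcript abundance in which values are scaled by transcript length and sum to between 994284 and 998266 per library over the listed genes. Between 12903 and 13905 genes reached 1 TPM in a library, and no member was listed at 0 in any library. The labelled cell type held on day 0, where 6 ES cell markers (*Pou5f1*, *Sox2*, *Nanog*, *Sall4*, *Utf1* and *Fgf4*) summed to 2512 to 3121 TPM. On day 0, 2 libraries stood apart in 14 markers of primitive and visceral endoderm, which summed to 225.7 TPM in E14Tg2a replicate 1 and 115.2 TPM in ΔK9.2 replicate 1 but to between 21.02 and 33.88 TPM in the other day 0 libraries. Without either of them, as with all libraries, no member was called different between the clones and E14Tg2a on day 0. In these bulk samples, fewer cells of a type and less RNA per cell cannot be told apart.

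On the mm10 genome 3 members lie on chromosome 1 (*Tfcp2l1*, *Prdm14*, *Nr5a2*), 2 on chromosome 8 (*Klf2*, *Zfp42*) and the others each on a chromosome of their own. *Zfp42* spans chr8:43295063-43306980, *Esrrb* chr12:86361117-86521628, *Klf2* chr8:72319033-72321656, *Nr0b1* chrX:86191764-86195947 and *Klf4* chr4:55527143-55532466. None lies on chromosome 6, which carries *Nanog* and the deletion. Promoters, taken as 250 bases before to 50 after a transcription start in RefSeq on GRCm38.p6, were given for 7 of the 10 members, and *Klf5*, *Tbx3* and *Prdm14* had no entry. Those of the 4 factors called higher in the clones on day 8 and of *Klf4*, whose difference was negative, are shown from 5′ to 3′ on the strand of the gene, with the letters that matched a searched motif in capitals. For *Esrrb*, which had 2 starts, the upstream one is shown.

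Zfp42 (chr8:43306960-43307259, minus strand): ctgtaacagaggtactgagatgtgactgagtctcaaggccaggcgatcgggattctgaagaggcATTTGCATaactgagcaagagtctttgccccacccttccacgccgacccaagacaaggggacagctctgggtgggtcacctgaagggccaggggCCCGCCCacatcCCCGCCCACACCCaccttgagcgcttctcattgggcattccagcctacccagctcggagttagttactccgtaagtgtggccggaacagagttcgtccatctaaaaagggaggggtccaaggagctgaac
Esrrb (chr12:86360867-86361166, plus strand): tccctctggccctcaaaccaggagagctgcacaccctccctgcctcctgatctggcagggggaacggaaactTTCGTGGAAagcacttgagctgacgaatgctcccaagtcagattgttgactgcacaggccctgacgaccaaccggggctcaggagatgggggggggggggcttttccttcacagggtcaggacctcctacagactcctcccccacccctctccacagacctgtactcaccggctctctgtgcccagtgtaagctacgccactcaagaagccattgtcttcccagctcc
Klf2 (chr8:72318812-72319111, plus strand): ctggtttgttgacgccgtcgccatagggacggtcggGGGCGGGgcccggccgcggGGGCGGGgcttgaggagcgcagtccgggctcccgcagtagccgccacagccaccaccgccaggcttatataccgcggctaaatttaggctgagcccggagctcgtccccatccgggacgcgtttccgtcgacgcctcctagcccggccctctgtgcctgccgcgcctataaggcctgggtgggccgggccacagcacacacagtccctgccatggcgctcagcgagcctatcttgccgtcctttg
Nr0b1 (chrX:86191525-86191824, plus strand): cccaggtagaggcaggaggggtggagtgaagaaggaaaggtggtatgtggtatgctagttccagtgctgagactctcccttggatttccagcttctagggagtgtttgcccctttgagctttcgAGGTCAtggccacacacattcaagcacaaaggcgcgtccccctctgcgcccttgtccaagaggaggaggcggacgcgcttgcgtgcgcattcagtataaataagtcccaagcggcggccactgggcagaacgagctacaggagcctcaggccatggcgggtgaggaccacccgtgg
Klf4 (chr4:55532426-55532725, minus strand): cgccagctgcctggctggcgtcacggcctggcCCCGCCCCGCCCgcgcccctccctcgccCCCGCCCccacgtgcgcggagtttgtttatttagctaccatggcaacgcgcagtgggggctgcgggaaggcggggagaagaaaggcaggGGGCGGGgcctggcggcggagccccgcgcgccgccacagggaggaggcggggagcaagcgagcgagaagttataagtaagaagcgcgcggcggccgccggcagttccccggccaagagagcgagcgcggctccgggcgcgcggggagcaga

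Both strands were searched for 6 motifs, and a match is a description of the letters only. The octamer ATGCAAAT, the textbook site of POU factors such as OCT4, was found in the promoter of *Zfp42*, where it began at position -186 relative to the start, and in none of the other 6 members with an entry. It was present in 1.74% of all 32851 promoters. The GC box GGGCGGG, a site of SP and Krüppel-like factors, occurred 4 times before *Klf4*, where the first 2 copies overlap, 2 times before *Klf2* and 2 times before *Zfp42*, and is in 25.6% of all promoters. The CACCC box CCACACCC (3.56% of promoters) was found before *Zfp42* only, where it overlaps a GC box. The nuclear receptor core AGGTCA (16.3%) stood before *Nr0b1* and *Nr5a2*, the spacing motif TTCNNNGAA of STAT factors (8.30%) before the upstream start of *Esrrb*, and TCAAGGTCA, which contains AGGTCA (0.423%), in no member.

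All members fell within 4 days without LIF in E14Tg2a, by very different amounts. Of the members, 10 of 10 were called lower on day 4 than on day 0, against 4.07% of all 16336 genes called lower. A gene is called here where limma on log2(TPM + 1) gave a Benjamini-Hochberg adjusted p under 0.05 over all genes and an absolute log2 fold change above 1. The count was 9 of 10 on day 6 (8.69% of all genes) and 9 of 10 on day 8 (11.0%), with *Tbx3* as the exception on both days. The median log2 fold change of the members was -2.14, -3.40 and -3.83 on days 4, 6 and 8, and that of all genes was between -0.07 and 0.05.

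**Figure D1:**
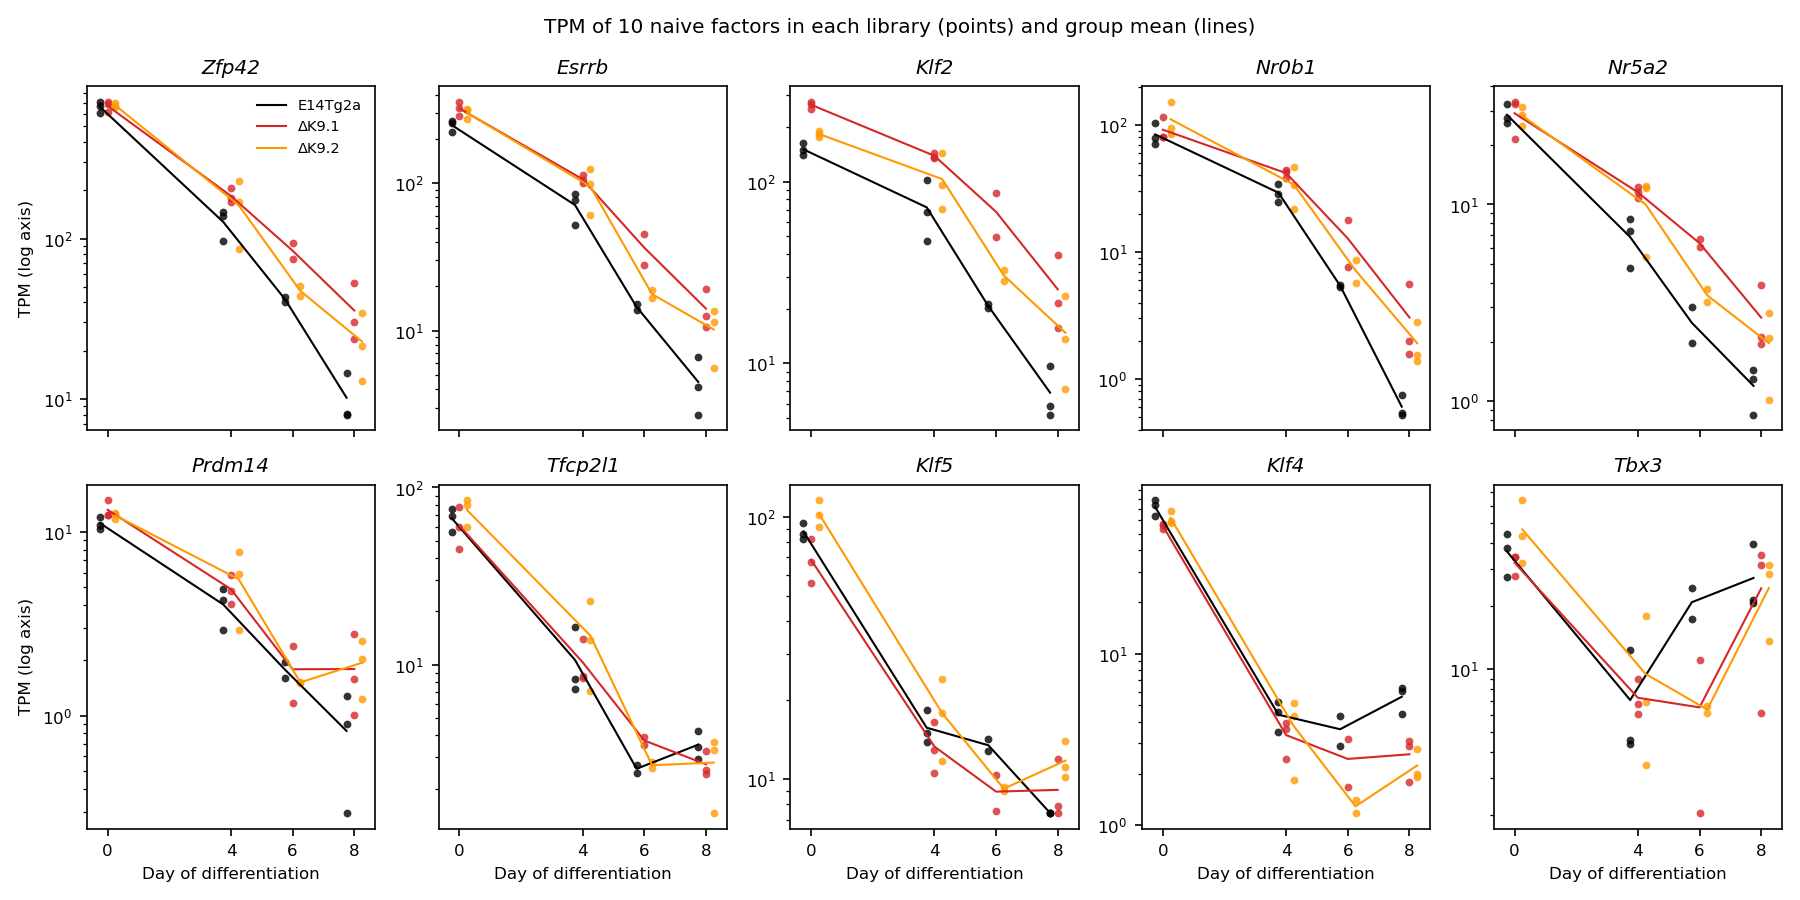
TPM (log axis) of each of the 10 factors against the day of differentiation. Points are libraries and lines join group means of E14Tg2a (black), ΔK9.1 (red) and ΔK9.2 (orange), with 3 libraries per line and day and 2 on day 6. The nuclear receptors, *Klf2* and *Zfp42* were lower on each later day, while *Tbx3* in E14Tg2a was lowest on day 4 (4.37 to 12.4 TPM) and at 20.8 to 39.7 TPM on day 8.

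The first to go was *Klf4*, a Krüppel-like zinc finger factor. In E14Tg2a it measured 63.4, 73.0 and 78.2 TPM on day 0 and 5.195, 4.54 and 3.48 TPM on day 4, so that 6.16% of its level was left (log2 fold change -3.75 ± 0.23, SE, adjusted p = 2.14e-11). The groups were far apart, and from day 4 onwards its E14Tg2a libraries overlapped between neighbouring days in the order of levels. At the other end stood *Klf2*, another factor of this family, with 47.9% of its level left on day 4. It measured 163.3, 149.0 and 140.7 TPM on day 0 and 102.2, 67.9 and 47.0 TPM on day 4 (log2 fold change -1.12 ± 0.33, SE, adjusted p = 0.0129). Every day 4 library lay below every day 0 library.

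The other 8 factors had between 15.9% (*Tfcp2l1*) and 36.0% (*Prdm14*) of their day 0 level left on day 4 in E14Tg2a. By day 8 the order had changed. *Nr0b1*, an orphan nuclear receptor that acts as a corepressor, had the smallest share left (0.720%), followed by *Zfp42* (1.54%), the zinc finger gene also known as Rex1 and used as a marker of naive cells, and *Esrrb* (1.80%), an orphan receptor of the oestrogen-related family. Then came *Nr5a2* (4.15%), *Klf2* (4.57%), *Tfcp2l1* (5.28%), *Prdm14* (7.38%), *Klf4* (7.83%) and *Klf5* (8.46%), with 74.6% left for *Tbx3*. Thus *Klf4*, the lowest of all on day 4 relative to day 0, was among the highest in this order on day 8. Its E14Tg2a libraries stayed between 2.91 and 6.34 TPM from day 4 to day 8, while *Nr0b1*, *Zfp42* and *Esrrb* fell at each step.

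**Figure D2:**
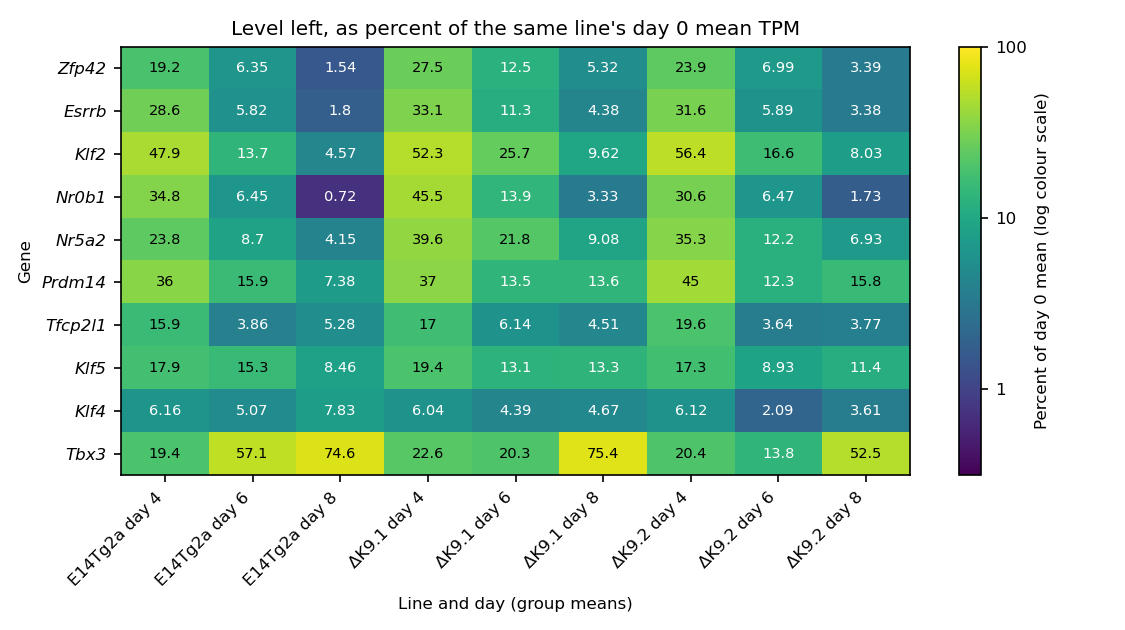
Mean TPM on days 4, 6 and 8 as percent of the day 0 mean of the same line (number in each cell, log colour scale), for 10 factors in rows and the 3 lines in columns. *Klf4* had about 6% left on day 4 in every line, whereas *Nr0b1* went from 34.8% on day 4 to 0.720% on day 8 in E14Tg2a.

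The comparison of consecutive days separated the same patterns. From day 4 to day 6 in E14Tg2a, 6 members were called lower (4.14% of all genes), namely the nuclear receptors *Esrrb*, *Nr0b1* and *Nr5a2* together with *Klf2*, *Zfp42* and *Tfcp2l1*. From day 6 to day 8, 4 were called lower (2.73% of all genes), namely *Esrrb* (log2 fold change -1.56), *Klf2* (-1.50), *Zfp42* (-1.99) and *Nr0b1* (-2.00). *Klf4* passed the test at neither step (-0.23 and 0.52), nor did *Tbx3* (1.55 and 0.33). In all 3 lines, *Esrrb*, *Klf2*, *Zfp42*, *Nr0b1* and *Nr5a2* followed the order of days 0, 4, 6 and 8 from high to low, with no overlap between libraries of neighbouring days. The share of all genes with such an order was not computed.

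*Tbx3*, a T-box factor, was the only member whose level on day 8 was not called different from day 0 in any line. In E14Tg2a it measured 44.1, 37.9 and 27.7 TPM on day 0, then 12.4, 4.56 and 4.37 TPM on day 4, 24.4 and 17.4 TPM on day 6, and 39.7, 21.3 and 20.8 TPM on day 8. The day 4 libraries lay below all others, and those of day 8 overlapped with day 0. Its log2 fold change from day 0 was -2.33 ± 0.54 (SE, adjusted p = 0.00245) on day 4 and -0.45 ± 0.54 (SE, adjusted p = 0.500) on day 8. *Tbx3* is also expressed in endoderm and in mesoderm of the heart, and marker sums of both tissues are given for E14Tg2a. The 14 markers of primitive and visceral endoderm summed to 22.01 to 225.7 TPM on day 0, to 984.8, 125.4 and 451.4 TPM on day 4 and to 440.6 to 602.9 TPM on day 8, with 11 of 14 called higher on day 8 and none at 0 in all libraries of that day. The sums of day 4 and day 8 overlapped. Within day 4, replicate 1 had the highest sum in E14Tg2a (984.8 TPM), in ΔK9.2 (269.1 TPM against 29.4 and 29.3 TPM) and in ΔK9.1 (50.4 TPM against 8.69 and 7.46 TPM). It was also the highest library for *Tbx3* in E14Tg2a and ΔK9.2, at 12.4 and 18.0 TPM. In ΔK9.1 the order differed, as *Tbx3* was highest in replicate 3 (8.96 TPM), which had the lowest sum, and measured 6.82 TPM in replicate 1. The 10 markers of mesoderm and heart muscle summed to 9.98 to 13.9 TPM on day 0, 7.30 to 10.7 TPM on day 4, 415.4 and 510.3 TPM on day 6 and 679.4 to 853.6 TPM on day 8, with 9 of 10 called higher and likewise none at 0 on day 8 (15.9% of all genes called higher). Their part in the level of *Tbx3* was not tested.

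The factors also fell in both clones. In ΔK9.1, 9, 10 and 9 of 10 members were called lower than on day 0 on days 4, 6 and 8. Of all genes, 4.02%, 7.90% and 10% (1634 genes) were called lower on these days. The counts in ΔK9.2 were also 9, 10 and 9, against 5.09%, 10.5% and 11.3% of all genes called lower. The day 4 exception was *Klf2* in both clones, with log2 fold changes of -0.93 (ΔK9.1) and -0.88 (ΔK9.2) that missed the size of 1 (adjusted p of 0.0346 and 0.0413). *Klf2* had 52.3% and 56.4% of its day 0 level left there. The day 8 exception was again *Tbx3*, with 75.4% (ΔK9.1) and 52.5% (ΔK9.2) of day 0. The medians of all genes shifted by -0.21 and -0.16 from day 0 to day 4 in ΔK9.1 and ΔK9.2, against member medians of -1.72 and -1.94.

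The clones were then compared with E14Tg2a on each day, to ask whether the factors were affected by the loss of the region near *Nanog*. *Nanog* itself averaged 344.0 ± 21.2, 467.7 ± 16.2 and 425.6 ± 13.4 TPM (SD, n = 3 each) on day 0 for E14Tg2a, ΔK9.1 and ΔK9.2, and 26.8 ± 6.84, 98.9 ± 68.2 and 104.8 ± 30.5 TPM (SD, n = 3 each) on day 8. For the mean of both clones, no member was called different on day 0 (0.386% of all genes), day 4 (0.796%) or day 6 (1.62%). At an unadjusted p under 0.05, 0, 2 and 6 of the 10 members passed on these days, as did 17.6%, 15.5% and 17.0% of all genes. The rule used for undifferentiated cells, an absolute log2 fold change above 0.3 with adjusted p under 0.05 in both clones, named no member either (30 genes, 0.184% of all genes). In this fit *Nanog* itself was not called on day 0 (log2 difference 0.38, adjusted p = 0.435). Yet its clone libraries (412.0 to 486.2 TPM) lay above those of E14Tg2a (326.3 to 367.5 TPM). The paper, which used DESeq2, listed more genes by this rule and a small rise of *Nanog*. A missing call on day 0 thus does not show that a factor was unchanged. On day 8, 4 of 10 members were called higher in the clones (0.826% of all genes) and none lower (3.42%).

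**Figure D3:**
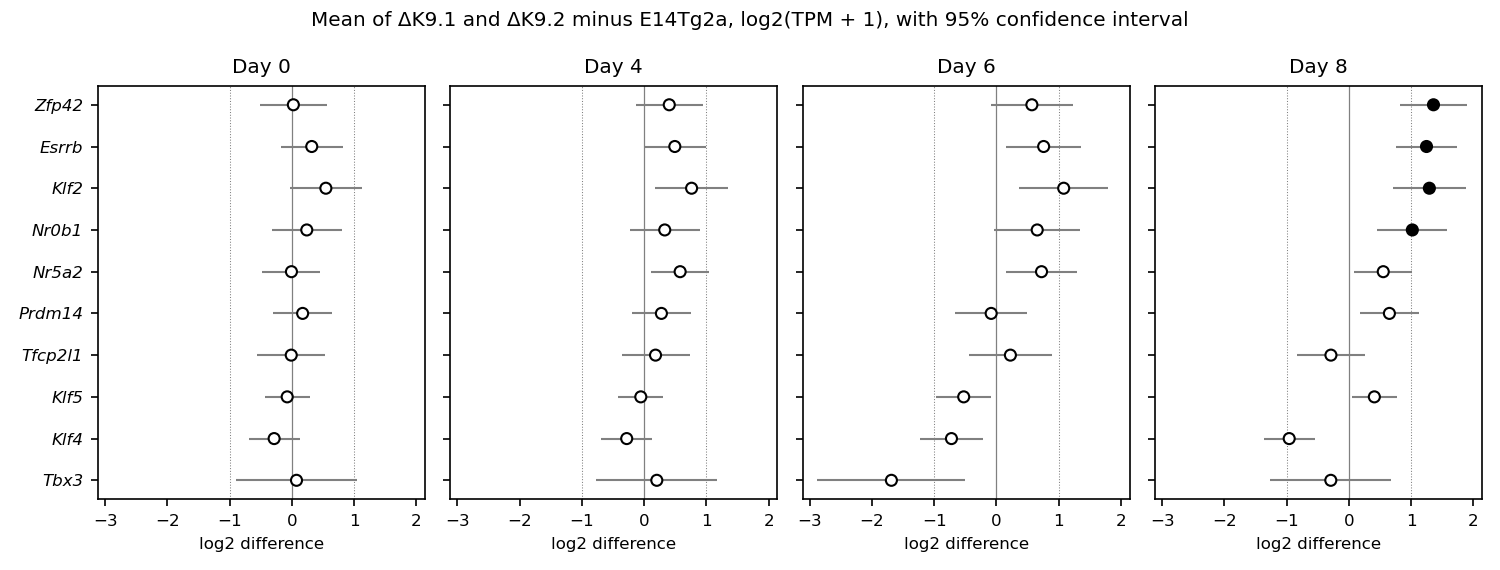
Difference between the mean of ΔK9.1 and ΔK9.2 and E14Tg2a on the log2(TPM + 1) scale (x axis) for 10 factors (y axis) on each day. Bars are 95% confidence intervals, filled circles mark called genes and dotted lines stand at a log2 difference of 1 in either direction. No circle is filled before day 8, when *Zfp42*, *Esrrb*, *Klf2* and *Nr0b1* are.

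*Zfp42* had the largest difference of the 4 on the log2(TPM + 1) scale. Its day 8 levels were 8.08, 14.5 and 7.99 TPM in E14Tg2a, 23.8, 30.3 and 52.8 TPM in ΔK9.1 and 12.9, 21.4 and 34.2 TPM in ΔK9.2. Only ΔK9.2 replicate 1 fell within the range of E14Tg2a, and 6 of 6 clone libraries lay above the E14Tg2a library that shared their number. Each of the 3 E14Tg2a libraries is compared with both clones, so same-number pairs here and below are not independent. The share of all genes with such pairs was not computed. The mean of the clones was 2.87-fold that of E14Tg2a (log2 difference 1.36 ± 0.26, SE, adjusted p = 0.000773). *Zfp42* was also the only member whose change from day 0 to day 8 was called different between the clones and E14Tg2a (interaction 1.33 ± 0.37, SE, adjusted p = 0.0324), against 0.508% of all genes called in this direction. This call was lost in 5 of 18 fits with 1 library left out (adjusted p of 0.0513 to 0.0846), and *Esrrb* gained it without ΔK9.2 replicate 1 of day 8 (adjusted p = 0.0422). On day 0 no difference of *Zfp42* was detectable, with means of 661.0 ± 55.6, 669.4 ± 48.5 and 674.6 ± 22.4 TPM (SD, n = 3 each) for the lines in the same order and an interval of the log2 difference from -0.52 to 0.57.

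*Esrrb* measured 4.15, 6.60 and 2.68 TPM in E14Tg2a, 10.6, 12.5 and 19.1 TPM in ΔK9.1 and 5.56, 11.4 and 13.5 TPM in ΔK9.2 on day 8. The lowest clone library lay below the highest E14Tg2a library, but 6 of 6 clone libraries exceeded the E14Tg2a library with their number. The difference was 2.71-fold in mean TPM (log2 difference 1.25 ± 0.24, SE, adjusted p = 0.000748). In contrast to *Zfp42*, all 6 clone libraries of *Esrrb* were already above the 3 of E14Tg2a on day 0, at 271.7 to 357.8 TPM against 223.7 to 263.3 TPM, which also held for 5.17% of all genes. The log2 difference on day 0 was 0.32 ± 0.24 (SE, adjusted p = 0.539). With the day 0 libraries fitted alone the adjusted p was 0.0877, and 0.0101 with the block added, at a size just past 0.3. For ΔK9.2 alone the log2 difference was 0.27, under the 0.3 that the day 0 rule asks of both clones. The day 0 difference was positive in 6 of 6 pairs, and the interaction on day 8 was 0.93 ± 0.34 (SE, adjusted p = 0.101).

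*Klf2* showed the same kind of early separation. On day 0 it lay between 140.7 and 163.3 TPM for E14Tg2a, between 176.3 and 191.5 TPM for ΔK9.2 and between 252.7 and 276.5 TPM for ΔK9.1, so that the 3 lines did not overlap at all. The log2 difference of the clones was 0.55 ± 0.28 (SE, adjusted p = 0.322), and with the day 0 libraries fitted alone the adjusted p was 0.0101, at a size past 0.3 and under 1. For ΔK9.2 alone the log2 difference was 0.28, likewise under 0.3. On day 8 its levels were 5.86, 9.64 and 5.21 TPM in E14Tg2a, 15.7, 21.5 and 39.5 TPM in ΔK9.1 and 7.19, 13.7 and 23.4 TPM in ΔK9.2. Again 1 library, ΔK9.2 replicate 1, lay within the range of E14Tg2a. The mean was 2.92-fold higher (log2 difference 1.29 ± 0.28, SE, adjusted p = 0.00215), and the interaction was 0.75 ± 0.40 (SE, adjusted p = 0.277).

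*Nr0b1* was the lowest of the 4 on day 8, with 0.525, 0.753 and 0.543 TPM in E14Tg2a, 1.58, 1.99 and 5.59 TPM in ΔK9.1 and 1.56, 1.38 and 2.82 TPM in ΔK9.2. All clone libraries were above all E14Tg2a libraries, as for 5.44% of all genes. The mean TPM was 4.10-fold higher in the clones, and the log2(TPM + 1) scale, which understates changes of low genes, gave 1.02 ± 0.27 (SE, adjusted p = 0.00957). This value was only just past the size of 1. Without E14Tg2a replicate 1, E14Tg2a replicate 3, ΔK9.1 replicate 3 or ΔK9.2 replicate 3 of day 8 it was 0.98, 0.99, 0.81 and 0.91, with adjusted p of 0.0295, 0.0387, 0.0235 and 0.0221. *Esrrb* likewise came to 0.99 without E14Tg2a replicate 3 (adjusted p = 0.0129). The sum of the 6 ES cell markers was also higher in the clones on day 8, at 182.8 to 344.7 TPM for E14Tg2a, 378.4 to 960.9 TPM for ΔK9.1 and 458.0 to 1075 TPM for ΔK9.2. Of these markers 4 of 6 were called higher, against 0.826% of all genes, and none was at 0. The part of undifferentiated cells in the levels of the 4 factors was not tested.

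The 4 calls depended on the spread shared across days. When the 9 libraries of day 8 were fitted alone, the differences were the same but the adjusted p rose to 0.0834 for *Zfp42*, 0.0857 for *Esrrb*, 0.106 for *Nr0b1* and 0.114 for *Klf2*, so that 0 of 10 members were called. With day 8 alone and the replicate number as a block, a fit added after the data were seen, *Zfp42* (0.0346) and *Nr0b1* (0.0472) were called while *Esrrb* (0.0520) and *Klf2* (0.0506) were not. Of the whole table, 17 and 92 genes were called higher in these fits, against 135 with all days.

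*Klf4* was the member with the largest negative difference on day 8. It measured 6.34, 4.45 and 6.02 TPM in E14Tg2a, 2.89, 3.10 and 1.78 TPM in ΔK9.1 and 1.99, 2.78 and 1.92 TPM in ΔK9.2. All clone libraries were below all E14Tg2a libraries, as for 7.99% of all genes. The mean of E14Tg2a was 2.33-fold that of the clones, and the log2 difference of -0.96 ± 0.20 (SE, adjusted p = 0.00138) passed the test but missed the size of 1. It reached -1.20 with a pseudocount of 0.1 and was between -1.01 and -1.09 without replicate 2 of E14Tg2a, ΔK9.1 or ΔK9.2. In ΔK9.2 taken alone *Klf4* was called lower (-1.03, adjusted p = 0.00317). *Klf4* was below the E14Tg2a library of the same number in all 6 pairs on days 0, 4 and 8 and in all 4 pairs on day 6, and its difference passed the test on day 8. On day 6 the adjusted p was 0.0985, or 0.0348 with replicates blocked by number. With day 6 alone it was 0.222, or 0.169 when blocked.

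The ratio of *Zfp42* to *Klf4* within a library gave the following values. On day 0 the ratio of *Zfp42* to *Klf4* TPM was 9.49, 9.74 and 8.57 in E14Tg2a and between 10.3 and 13.2 in the 6 clone libraries. On day 8 it was 1.27, 3.26 and 1.33 in E14Tg2a and 8.24, 9.76 and 29.7 for ΔK9.1, with 6.48, 7.70 and 17.8 for ΔK9.2. On day 4 it was 26.7 to 32.0 in E14Tg2a and 39.3 to 69.1 in the clones, and on day 6 9.35 to 14.9 and 23.3 to 55.9. On each of the 4 days, every clone library thus had a higher ratio than every E14Tg2a library. The ratio of *Zfp42* to *Tfcp2l1* overlapped between E14Tg2a and the clones on day 0 (8.67 to 12 against 7.93 to 15.7) and day 4 (8.54 to 17.4 against 10 to 24.5), but not on day 6 (15.9 and 16.5 against 16.8 to 26.4) or day 8 (2.31 to 3.44 against 5.80 to 16.2). The pairs were chosen after the values were seen, and *Zfp42* and *Klf4* had the largest positive and negative log2 differences of the members on day 8. The share of all gene pairs with such a separation was not computed, and the ratios were not tested.

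**Figure D4:**
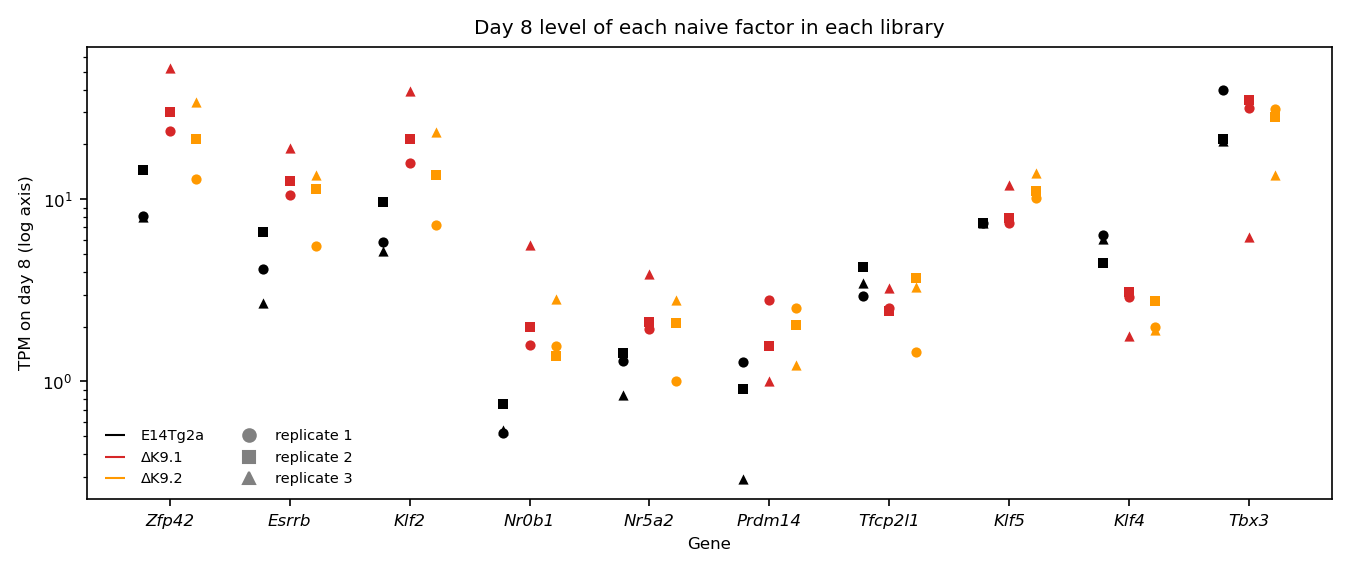
TPM on day 8 (log axis) of each factor in each library of E14Tg2a (black), ΔK9.1 (red) and ΔK9.2 (orange), with the replicate number given by the symbol. *Zfp42*, *Esrrb*, *Klf2* and *Nr0b1* lie higher in most clone libraries, *Klf4* lies lower in all 6, and replicate 3 is the highest clone library for the first 4.

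*Klf4* is also expressed in endothelium and in simple epithelia. On day 8, 12 markers of endothelium and blood summed to between 1064 and 4663 TPM for E14Tg2a, 59.7 and 1943 TPM for ΔK9.1 and 84.4 and 286.6 TPM for ΔK9.2. Of these markers 8 were called lower in the clones, against 3.42% of all genes, and none was at 0 in all libraries of a line on that day. Most of this sum was embryonic globin of blood, as *Hbb-bh1* alone had a mean of 1803 TPM in E14Tg2a and 284.8 TPM in the clones, and *Hba-x* 330.0 and 60.0 TPM. Replicate 2 had the highest sum in each line. It was 4663 TPM in E14Tg2a (1124 and 1064 TPM in the others), 1943 TPM in ΔK9.1 (149.1 and 59.7 TPM) and 286.6 TPM in ΔK9.2 (95.1 and 84.4 TPM). Of the endothelial receptor genes, *Tek* was called lower (16.0 TPM in E14Tg2a and 4.09 TPM in the clones), and *Kdr* measured 37.4 and 28.8 TPM. The sum of 8 simple epithelium markers was 1778 to 2045 TPM for E14Tg2a, 970.7 to 1090 TPM for ΔK9.1 and 988.3 to 1394 TPM for ΔK9.2, with 0 of 8 called by limma, 3 of 8 at an unadjusted p under 0.05 (32.0% of all genes), and none at 0. Most of this sum was *Krt8* (mean 827.9 TPM in E14Tg2a and 448.4 TPM in the clones) and *Krt18* (660.5 and 329.4 TPM), while the junction genes *Cdh1* (39.9 and 52.0 TPM) and *Cldn4* (26.3 and 43.8 TPM) had the higher mean in the clones. Primitive and visceral endoderm markers were called lower for 9 of 14, against the same 3.42% of all genes (*Ttr* by -4.81 on the log2 scale, *Afp* by -4.40 and *Apoa1* by -3.62), with sums of 440.6 to 602.9, 52.5 to 190.6 and 81.6 to 103.0 TPM in the 3 lines. The part of these cell types in the level of *Klf4* was not tested.

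The remaining 5 factors were not called on day 8. *Prdm14*, a PR domain protein that restrains FGF signalling and DNA methylation in ES cells, averaged 0.825 ± 0.497, 1.79 ± 0.91 and 1.94 ± 0.66 TPM (SD, n = 3 each) across the lines in the order E14Tg2a, ΔK9.1, ΔK9.2. It passed the adjusted test without reaching the size of 1 (log2 difference 0.65 ± 0.23, SE, adjusted p = 0.0451, higher in 6 of 6 pairs), and was called with a pseudocount of 0.1 (1.18). With 1 library left out the difference ranged from 0.42 to 0.83 and the adjusted p reached 0.289, without E14Tg2a replicate 3, and with day 8 alone the adjusted p was 0.190. With the replicate number as a block it was 0.00612 over all days and 0.0203 with day 8 alone, at the same size of 0.65. *Nr5a2*, the receptor also known as LRH1, had 1.19 ± 0.30, 2.65 ± 1.08 and 1.96 ± 0.90 TPM (SD, n = 3 each), and a log2 difference of 0.55 with a 95% interval from 0.09 to 1.02 (adjusted p = 0.0875).

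*Klf5* was tightly grouped in E14Tg2a, at 7.45, 7.44 and 7.39 TPM, and was at 7.45, 7.91 and 11.9 TPM in ΔK9.1 and 10.2, 11.1 and 14 TPM in ΔK9.2. The lowest clone library and the highest E14Tg2a library were equal within rounding. Its log2 difference was 0.41, with a 95% interval from 0.05 to 0.77 (adjusted p = 0.103). For *Tfcp2l1*, a grainyhead-like factor, the 95% interval of the log2 difference ran from -0.83 to 0.26, with levels of 3.54 ± 0.64, 2.75 ± 0.46 and 2.81 ± 1.19 TPM (SD, n = 3 each). Its level was lower than in the E14Tg2a library of the same number in 6 of 6 pairs (adjusted p = 0.440 with the block). For *Tbx3* it ran from -1.26 to 0.68, which leaves differences of more than 1 within the error. Its levels were 39.7, 21.3 and 20.8 TPM in E14Tg2a, 31.6, 35.2 and 6.17 TPM in ΔK9.1 and 31.4, 28.3 and 13.6 TPM in ΔK9.2, with replicate 3 lowest in each line.

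Day 6 held only 2 libraries per line. *Esrrb*, *Klf2*, *Zfp42*, *Nr0b1* and *Nr5a2* were higher in all 4 clone libraries than in both of E14Tg2a, as 12.8% of all genes were, and 2 of 10 members, *Klf5* and *Tbx3*, were lower in all 4, which is the share of all genes (19.6%). *Tbx3* measured 24.4 and 17.4 TPM in E14Tg2a, 11.1 and 2.04 TPM in ΔK9.1 and 6.63 and 6.17 TPM in ΔK9.2. Both E14Tg2a libraries of day 6 lay above those of day 4, whereas day 6 and day 4 libraries overlapped in each clone. The log2 difference of -1.69 ± 0.58 (SE) had an adjusted p of 0.104, or 0.0174 with replicates blocked by number. With day 6 alone it was 0.221, or 0.191 when blocked. In ΔK9.1 taken alone, *Esrrb* (1.24 ± 0.34, SE, adjusted p = 0.0437) and *Klf2* (1.62 ± 0.40, SE, adjusted p = 0.0234) were already called higher on day 6, against 0.355% of all genes. In ΔK9.1 *Esrrb* measured 28.03 and 44.9 TPM and *Klf2* 49.4 and 87.3 TPM, against 13.7 and 15.2 TPM and 20.2 and 21.1 TPM for E14Tg2a. This count of 2 became 0 without ΔK9.1 replicate 3 or either E14Tg2a library, 4 without ΔK9.1 replicate 2, 4 with the block, and 0 with day 6 alone.

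No member was called between ΔK9.2 and ΔK9.1 by limma on any day (0.520%, 0.00%, 0.00612% and 0.00% of all genes on days 0, 4, 6 and 8), while 1, 0, 4 and 2 members had an unadjusted p under 0.05 (15.1%, 5.10%, 4.24% and 6.06% of all genes). Against E14Tg2a on day 8, ΔK9.1 had the same 4 members called higher as the mean of both clones (0.686% of all genes). ΔK9.2 had *Esrrb* (1.01) and *Zfp42* (1.04) called higher (0.955%) and *Klf4* called lower (4.24%). That count of 3 in ΔK9.2 was 0 without its replicate 3 or without E14Tg2a replicate 1 or 3. *Klf2* and *Nr0b1* in ΔK9.2 had log2 differences of 0.90 and 0.83 (adjusted p of 0.0610 and 0.0713).

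Over the 12 group means of log2(TPM + 1), 9 members followed the mean profile of the other members with a Pearson r between 0.868 (*Klf2*) and 0.984 (*Prdm14*), and *Tbx3* did so with 0.356. These values are descriptions, since the groups share lines and days. Each pair among *Zfp42*, *Esrrb*, *Nr0b1* and *Nr5a2* had an r of 0.97 or above. Among all other genes, the mean profile of the members was most closely followed by *H2-M5* (r = 0.996), *Camk1d* (0.996), *Tekt1* (0.994), *Kat6b* (0.993) and *Pcsk6* (0.992). *H2-M5*, for instance, was at 23.1 TPM on day 0 and 0.586 TPM on day 8 in E14Tg2a. The closest gene to each nuclear receptor was *Mybl2* for *Esrrb* (0.998), *Fbxo15* for *Nr0b1* (0.997) and *Tet1*, a methylcytosine dioxygenase, for *Nr5a2* (0.996). For the Krüppel-like factors it was *Tst* for *Klf2* (0.994), *Serpinb1a* for *Klf4* (0.991) and *Eed*, a Polycomb subunit, for *Klf5* (0.990). It was *Epb41l4a* for *Zfp42* (0.995), *Ly6g6e* for *Prdm14* (0.993), *Itpka* for *Tfcp2l1* (0.994) and *Klhl20* for *Tbx3* (0.959).

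**Figure D5:**
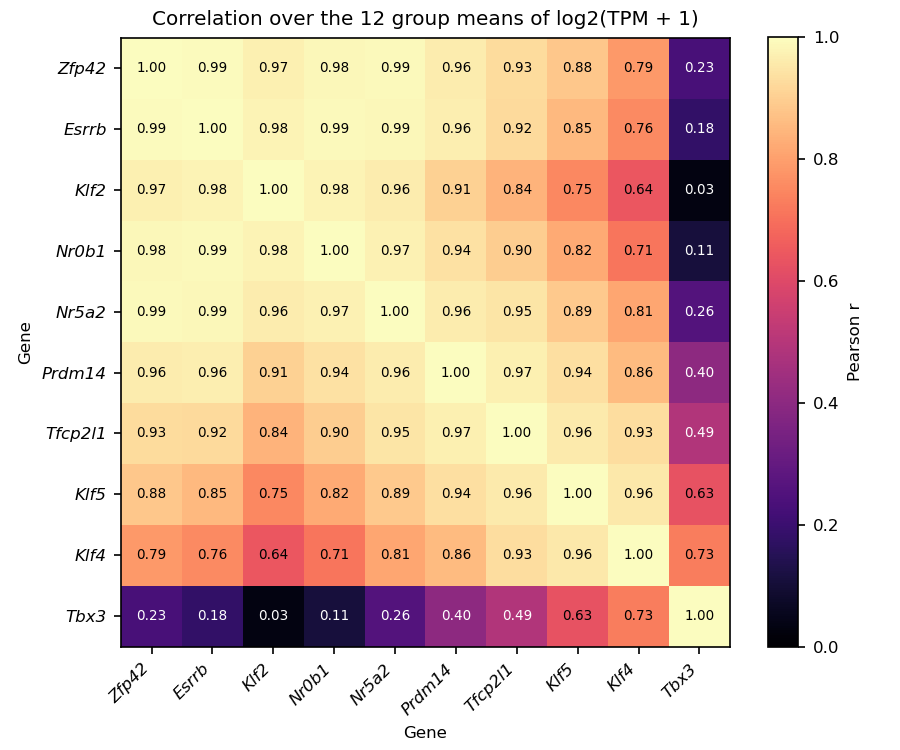
Pearson r between each pair of the 10 factors over the 12 group means (3 lines by 4 days) of log2(TPM + 1), shown as colour and number. The upper left block of nuclear receptors, *Zfp42* and *Klf2* is at 0.96 or above, and *Tbx3* is the lowest row, with 0.03 to *Klf2* and 0.73 to *Klf4*.

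The other genes of the network were taken from lists that hold none of the members. Of 22 other pluripotency genes, 19 were called lower on day 8 than on day 0 in E14Tg2a, against 11.0% of all genes, such as *Tdh* (-5.41 on the log2 scale), *Tcl1* (-5.30) and *Tdgf1* (-5.20). On day 8, 10 of the 22 were called higher in the clones (0.826% of all genes) and 1 lower (3.42%), with a median of 0.92 beside 0.60 for the naive factors and -0.00 for all genes. The largest were *Gbx2* (1.82), *Nanog* (1.79) and the RNA-binding protein gene *L1td1* (1.71), and *Pecam1*, which endothelium expresses too, was lower (-1.28). Of 14 components of the LIF and STAT3 pathway, 0 were called by limma between the clones and E14Tg2a on day 8, 6 of 14 had an unadjusted p under 0.05 (32.0% of all genes), and the median was -0.17. In E14Tg2a from day 0 to day 8, *Jak2* was called higher (1.81) and 5 of the 14 lower, against 15.9% and 11.0% of all genes. The largest falls were those of *Socs3* (-2.42), a feedback target of STAT3, *Bcl3* (-2.21) and *Gab1* (-1.60). Of 19 genes of the exit from the naive state and of the formative epiblast, 6 were called higher in the clones on day 8 (0.826% of all genes) and none lower (3.42%), among them *Fgf5* (2.10), *Pou3f1* (1.61) and *Zic2* (1.59). Genes of both the naive state and the later epiblast were thus among those called higher in the clones on day 8.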

How the data were processed

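RNA-seq libraries of E14Tg2a, ΔK9.1 and ΔK9.2 on days 0, 4, 6 and 8 were analysed, 33 in all. The authors made stranded poly-A libraries, used STAR for alignment of paired-end reads (mm10) and RSEM for quantification (versions not given in the sources used here). The deposited values are TPM, computed by the authors within each library. The table also holds fold changes and FDR of the authors' own tests, which were not used. TPM do not keep depth, so depth is unknown from them, and precision was taken from the replicates (median residual SD 0.237 on the log2 scale).

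TPM were tested as log2(TPM + 1) with limma 3.58.1 in R 4.3.3 (empirical Bayes with trend), in 1 fit over 12 groups, with Benjamini-Hochberg adjustment over 16336 genes and no filter. Interval and SE come from this fit, and folds of means from TPM. Thresholds (adjusted p under 0.05, absolute log2 fold change above 1, or 0.3 in both clones on day 0) were set after the study, which used 1 for days of differentiation against day 0 and 0.3 for undifferentiated clones against wild type. The size of 1 was extended here to the clones against E14Tg2a on each day and to the interaction. Tested on simulated data, the day 8 comparison of both clones found 185 of the 200 genes given a log2 change of 1.5, with 1 false call among 16336 genes. The simulated noise was independent between libraries, with the same SD on all days, and the changed genes were above a minimum mean level. It therefore does not test a spread that differs between days, paired libraries or low genes. As alternatives, the pseudocount was set to 0.1, genes under 5 TPM in every group mean were dropped, and the fits were repeated with median ratio rescaling, with the replicate number as a block, with the same line or same day only, and with each library left out in turn. Figures were drawn with matplotlib 3.10.9.

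The members and lists were chosen with earlier results of these data known. Besides the members, the text names *Nanog*, the 5 genes most correlated with the mean z-scored profile of the members and the closest gene to each member (among genes whose highest group mean reached 1 TPM), and from each list up to 3 called genes per direction with the largest changes. Coordinates of genes were taken from GENCODE M21. The assays are described as independent and run in parallel across lines. With group means removed, same-numbered libraries of different lines correlated above 0.1 in all 9 pairs on day 0 (lowest 0.120), day 4 (0.128) and day 8 (0.180). The 2 libraries per line of day 6 give only 3 distinct values (-0.0129, 0.104 and 0.202), so the numbers pair the samples on days 0, 4 and 8. Whether cultures of 1 number came from separate thaws is not given. The wild type is 1 parental line and each ΔK9 line is 1 clone, so p-values measure the spread between these cultures.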

Additional observations from a re-analysis of the deposited data

Results flagged for a closer look

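The change of *Zfp42* from day 0 to day 8 differed between the lines in a test of the difference itself. *Zfp42* went from a mean of 661.0 to 10.2 TPM in E14Tg2a and from 672.0 to 29.2 TPM in the clones, a difference of 1.33 on the log2 scale (limma interaction term, adjusted p = 0.0324). It was past the threshold with a pseudocount of 0.1 (1.41), with rescaling (1.42) and with the replicate block (adjusted p = 0.0276). Leaving out 1 of 18 libraries in turn kept the difference between 1.17 and 1.59. The adjusted p then missed 0.05, at 0.0513 to 0.0846, without replicate 1 or 3 of E14Tg2a on day 8, replicate 2 or 3 of E14Tg2a on day 0, or replicate 1 of ΔK9.1 on day 0.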

How the results depend on the processing

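Of 430 values of single factors recomputed with every library of the fit, 419 kept their direction and their side of the threshold, 6 lost the call, 3 gained it and 2 changed sign. The fold change is the same by construction with the 5 TPM filter, the replicate block, or the same line or day only. In those fits only the call could change. With 1 library left out, 253 of 270 kept both, 10 lost the call, 4 gained it and 3 changed sign. The counts of factors called lower with time kept within 1.5 times under every alternative run. The values that changed sign were small: *Zfp42* on day 0 (-0.0402) and *Klf5* on day 4 (0.0335) with rescaling, and *Tbx3* with 1 library left out. The *Tbx3* difference on day 8 ranged from -0.498 to 0.0862, above 0 without E14Tg2a replicate 1 (0.0039) or ΔK9.1 replicate 3, and its interaction from -0.574 to 0.00991, above 0 without ΔK9.1 replicate 3.

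With day 8 fitted alone, 0 factors were called higher in the mean of the clones, and 0 were called in either direction in ΔK9.1 or in ΔK9.2. Adding the block gave 2 higher in the mean of the clones and 0 and 1 in either direction. With day 6 alone, 0 were called in ΔK9.1 with or without the block. A pseudocount of 0.1 gave 1 factor lower on day 8, 5 called in ΔK9.2 on day 8 and 1 in ΔK9.1 on day 6. The replicate block gave 1 factor lower on day 6 and 4 called in ΔK9.1 on day 6, and moved no other count by over 1.5 times. Over all genes, 393 instead of 135 were called higher on day 8 with a pseudocount of 0.1, and with day 8 alone 17 were higher and 180 instead of 558 lower.

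Leaving out 1 library, the factors called higher on day 8 ranged from 2 to 4 (2 without E14Tg2a replicate 3) and those lower from 0 to 1 (1 without replicate 2 of any line). On day 6 they ranged from 0 to 1 in each direction (1 without ΔK9.1 replicate 2). The count was 0 to 1 for ΔK9.1 on day 4 (1 without E14Tg2a replicate 1), 0 to 4 for ΔK9.1 on day 6, 0 to 3 for ΔK9.2 on day 8 and 0 to 2 for the day 8 interaction (2 without ΔK9.2 replicate 1). The cause of these changes was not tested. Rescaling removed shifts of the median of all genes of -0.21 and -0.16 from day 0 to day 4 in ΔK9.1 and ΔK9.2, and of -0.13 in the day 4 interaction. TPM give no read counts, so the counting error of low factors such as *Nr0b1* on day 8 is unknown.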

Other observations

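In some groups, most factors were highest or lowest in the same library. On day 8, replicate 3 of ΔK9.1 was the highest of its group for 7 factors and the lowest for *Klf4*, *Tbx3* and *Prdm14*, and replicate 3 of ΔK9.2 was the highest for 6 and the lowest for the same 3. In E14Tg2a, replicate 3 of day 8 was the lowest for 7 factors and the highest for none. ΔK9.1 replicate 3 also had the lowest sums on day 8 of the 14 endoderm markers (52.5 TPM) and of the 12 endothelium and blood markers (59.7 TPM), and 176.7 TPM of *Nanog*, the highest of that day. On day 4, replicate 3 was the lowest of its group for 10 of 10 factors in E14Tg2a and in ΔK9.2, and replicate 1 was the highest for 10 of 10 in ΔK9.2 and 8 of 10 in E14Tg2a. In ΔK9.2 on day 6, replicate 2 was the highest and replicate 3 the lowest for 8 of 10, and in ΔK9.1 on day 0, replicate 1 was the highest for 6 and replicate 3 the lowest for 7. The factors were spread more evenly in E14Tg2a on day 0, where replicates 1, 2 and 3 were the highest for 4, 3 and 3 factors, or in E14Tg2a and ΔK9.1 on day 6, where each library was the highest for 5.

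Further marker lists were compared between the clones and E14Tg2a on day 8, when 0.826% of all genes were called higher and 3.42% lower. Of 7 germ cell genes only *Dppa3* was called higher (1.04 on the log2 scale), a gene that naive cells express too. The difference was positive for 6 of the 7, and 4 of the 7 had an unadjusted p under 0.05 (32.0% of all genes). Of the 7 trophoblast genes in the table, *Eomes* was called higher (1.72), and 3 others of that list (*Elf5*, *Prl3d1* and *Tpbpa*) were not analysed here. Of 10 mesoderm and heart muscle genes, *T* (2.70) and *Mesp1* (1.72), which mark early mesoderm, were called higher and 4 were called lower, with *Tnnt2* (-2.33), *Myl7* (-2.15) and *Hand2* (-1.39), genes of heart muscle and its progenitors, the largest. Of the 6 ES cell markers, 4 were called higher, among them *Pou5f1* (1.52) and *Sox2* (1.41).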
